A study of Mus musculus with 6 samples.

Results

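The genes of branched-chain amino acid breakdown described here are Bcat1, Bcat2, Bckdha, Bckdhb, Dbt, Dld, Bckdk, Ivd, Mccc1 and Mccc2, which make up 10 of the 25755 genes measured. They were found by their gene symbols, and all 10 have values above the floor of 3 reads in every library. Because these genes were chosen from results of the same comparison between ON-CR and sham mice, their values are given as a description and no p-value is attached to them.

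Optic nerves of 6 mice were analysed by bulk RNA sequencing, 3 with sham surgery (sham mice 1, 2 and 3) and 3 with bilateral optic nerve crush, abbreviated ON-CR (ON-CR mice 4, 5 and 6). Every mouse, sham controls included, was Nf1flox/flox; hGFAP-Cre, so that Nf1 is removed in neuroglial progenitors and their progeny by a Cre under control of the human GFAP promoter. The surgery was at 6 weeks of age and the nerves were taken at 12 weeks, which the labels give as 3 months. Libraries were made from 10 ng of RNA of whole nerve, which holds oligodendrocytes, astrocytes, microglia, vessels, connective tissue and axons. In such bulk RNA, fewer cells of a type and less RNA per cell cannot be told apart.

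Leucine, isoleucine and valine are first stripped of their amino group by branched-chain aminotransferases, cytosolic BCAT1 or mitochondrial BCAT2, and the nitrogen passes to glutamate. The resulting ketoacids are oxidized in the mitochondrion by the branched-chain ketoacid dehydrogenase, an irreversible step carried out by a complex of E1 (alpha and beta subunits, from Bckdha and Bckdhb), E2 (Dbt) and E3 (Dld), which the kinase BCKDK switches off. The leucine branch then runs through isovaleryl-CoA dehydrogenase (Ivd) and methylcrotonyl-CoA carboxylase, whose alpha and beta subunits come from Mccc1 and Mccc2. In the nervous system this pathway is known as a source of nitrogen for glutamate and of carbon for energy and lipids.

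The sequences just upstream of Bckdhb and Mccc2 are printed because these genes were the members with the lowest ON-CR values relative to sham controls. Each run is the 250 bases before the RefSeq start, 5′ to 3′ on the gene's strand, from RefSeq on GRCm38.p6. Capitals mark the CCAAT box (CCAAT, or ATTGG on the other strand) and the GC box (GGGCGG, or CCGCCC on the other strand).
Bckdhb, chr9:83924887-83925136, plus strand: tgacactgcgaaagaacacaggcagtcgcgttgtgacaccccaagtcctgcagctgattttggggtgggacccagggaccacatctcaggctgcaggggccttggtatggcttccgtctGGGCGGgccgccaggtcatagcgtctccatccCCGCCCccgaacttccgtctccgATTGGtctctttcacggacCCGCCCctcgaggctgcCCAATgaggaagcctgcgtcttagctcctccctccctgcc
Mccc2, chr13:100015640-100015889, minus strand: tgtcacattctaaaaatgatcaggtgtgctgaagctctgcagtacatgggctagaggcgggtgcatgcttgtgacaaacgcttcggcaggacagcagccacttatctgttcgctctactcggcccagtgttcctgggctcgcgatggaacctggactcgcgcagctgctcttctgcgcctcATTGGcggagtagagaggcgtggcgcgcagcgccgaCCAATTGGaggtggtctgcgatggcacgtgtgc
The Bckdhb window was 63.2% GC with 15 CpG dinucleotides, and held 2 CCAAT boxes and 3 GC boxes. The Mccc2 window was 58.8% GC with 18 CpG dinucleotides, and held 3 CCAAT boxes, of which a pair overlaps in the palindrome nearest to the start, and no GC box. Over 32851 promoter windows of the same length the median was 52.4% GC and 6.0 CpG. A CCAAT box was present in 33.8% of those windows and in 7 of the 9 members with an entry, and a GC box in 32.7% and in 2 of 9. Dbt was not matched. These matches describe the letters of the windows only.

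The libraries held 17414091 to 23621006 estimated reads, and replicates of a group were not duplicates (chi-square between pairs of 15.1 to 42.6 for each degree of freedom). No source used here says how the mice relate by litter or day. The groups differed in sex-linked RNA. Xist, a non-coding RNA of the inactive X chromosome, measured 16.7, 2.14 and 30.9 in the sham group against 2708, 6357 and 6131 after ON-CR. The Y-linked gene Ddx3y was at 1645, 1291 and 1544 in sham mice and at 976, 4.19 and 0 after ON-CR, so that sex and surgery cannot be told apart in any value below. The library of ON-CR mouse 4 held both transcripts at a high level, unlike the other 5 libraries. Its label names 1 mouse. The paper's section on RNA extraction and PCR puts more than 1 mouse into each sample, without saying whether this holds for the sequencing. Each library is counted here as 1 mouse, as labelled. The counts of called members and the fold change of Bckdhb are also given without ON-CR mouse 4. The profile comparison and the values relative to markers were not repeated without it. Markers of mature oligodendrocytes were present at a summed value of 1294000 to 1849000 in sham mice and 631400 to 748300 after ON-CR. All 10 had lower fold changes, and 7 were called lower by limma (adjusted p at or under 0.05). Astrocyte markers summed to 230000 to 282200 in sham mice and 292900 to 323700 after ON-CR, with 1 of 10 lower and 0 higher by limma (3 lower and 3 higher at an unadjusted p under 0.05). Microglia and macrophage markers summed to 16410 to 21180 and 22110 to 33690. Of these 10, 8 had higher and 2 lower fold changes, with 4 called higher by limma (7 higher at an unadjusted p under 0.05). Fibroblast markers summed to 17610 to 21040 and 11290 to 17380. Respiratory epithelium markers summed to 7893 in sham mouse 3 and to 5431 and 6216 in ON-CR mice 5 and 6, against 82.7 to 128 in the other mice, and B and plasma cell markers at 97910 in ON-CR mouse 6, against 126 to 2077 elsewhere. Skeletal muscle markers did not exceed a sum of 257 in any library, and photoreceptor markers 59.2. Neuronal markers summed to 4126 to 5981 in sham mice and to 2866 to 12020 after ON-CR.

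Bckdhb stood apart from the other members. Its normalized value was 23.7% of the sham level after ON-CR, while the remaining members other than Mccc2 had log2 fold changes between -0.29 and 0.05. Values are estimated counts scaled by a single factor in each library, and every fold change is ON-CR over sham on the log2(value + 1) scale. Of the 10 members, 2 were called lower by limma (Bckdhb and Mccc2; adjusted p at or under 0.05), where 1.13% of all genes were called lower. None was called higher, where 0.971% of all genes were. At an unadjusted p under 0.05, 3 members were lower and 0 higher. Over all genes these shares were 8.22% and 7.37%, and at a mean value of at least 50 they were 12.9% and 9.08%. The groups did not overlap for 3 members, each lower after ON-CR (Bckdhb, Mccc1 and Mccc2), and for 11.0% of all genes, and 0 members were higher without overlap, against 10.5% of all genes. Since this contrast chose the genes, these counts only describe them. A lower fold change was seen in 9 of 10 members, with a median of -0.25 beside 0.03 over all genes and -0.01 over the 14436 genes with a mean value of at least 50. The count was 8 of 10 under TMM, upper-quartile and library-total scaling and without ON-CR mouse 4 or 5. Bckdhb was not called without sham mouse 1 or 2 or ON-CR mouse 6, which left 0 members called, and Mccc2 also not under library-total scaling or without sham mouse 3 or ON-CR mouse 4, which left 1. When only the library total set the scale, the median over all genes moved by 0.122 and the split over all genes went from 290 lower and 250 higher to 195 lower and 421 higher.

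**Figure D1:**
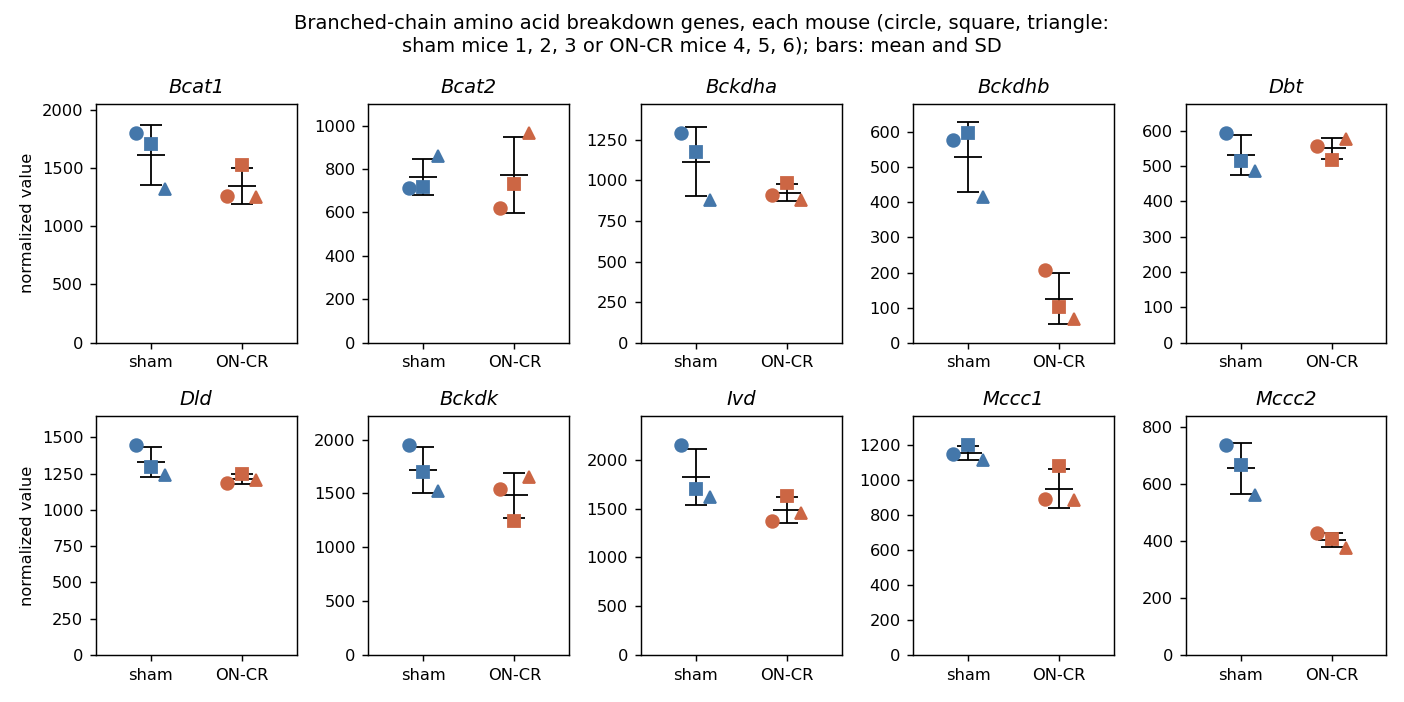
Normalized value of each member in each mouse (y axis, from 0, own scale for each gene) for sham mice 1 to 3 and ON-CR mice 4 to 6 (x axis); horizontal bars are the mean and the SD of 3 mice. The Bckdhb values after ON-CR (207, 103 and 67.1) all lie under the lowest sham value of 415. The gap for Mccc2 is narrower, from 427 in ON-CR mice to 562 in sham mice, and the groups overlap for 7 of the 10 genes.

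The aminotransferases open the pathway. Bcat1 (ENSMUSG00000030268.17, chr6:144993835-145076184, minus strand of GRCm38), the cytosolic enzyme, was at 1799, 1708 and 1315 in sham mice 1, 2 and 3 and at 1257, 1526 and 1250 in ON-CR mice 4, 5 and 6. Sham mouse 3 lay inside the ON-CR range, so the groups overlap. Means were 1607 ± 257 and 1345 ± 158 (SD, n = 3 each), or -0.25 on the log2 scale (standard error 0.15). Bcat2 (ENSMUSG00000030826.19, chr7:45570153-45589711, plus strand), the mitochondrial enzyme, was at 712, 719 and 862 in sham mice and 620, 731 and 967 after ON-CR. The lowest and the highest Bcat2 values both came from ON-CR mice. Its log2 fold change was -0.00 (standard error 0.17), and was positive under TMM (0.01), upper-quartile (0.03) and library-total scaling (0.12).

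The E1 subunits work as a heterotetramer of alpha and beta chains, each from its own gene. Bckdha (ENSMUSG00000060376.7, chr7:25629946-25658981, minus strand), for the alpha chain that carries the phosphorylation sites of the kinase, was at 1293, 1175 and 878 in sham mice and 908, 981 and 881 after ON-CR. Sham mouse 3 was under every ON-CR value, so the groups overlap. Means were 1115 ± 214 and 924 ± 52.1 (SD, n = 3 each), or -0.25 on the log2 scale (standard error 0.15).

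Bckdhb (ENSMUSG00000032263.14, chr9:83925145-84124240, plus strand), for the beta chain, was at 578, 599 and 415 in sham mice and 207, 103 and 67.1 after ON-CR. All ON-CR mice were low and clear of the sham range, with mouse 4 above mice 5 and 6. Means were 531 ± 101 and 126 ± 72.9 (SD, n = 3 each), or -2.21 on the log2 scale (standard error 0.35), which is 4.61-fold lower. The reads behind these values were 545, 676 and 442 in sham mice and 208, 98 and 65 after ON-CR, far over the floor. Ordered by fold change from the lowest, Bckdhb stood at place 60 of 25755 genes. Leaving out ON-CR mouse 6 gave -1.84 for the log2 fold change, and leaving out ON-CR mouse 4 gave -2.64. No other annotated gene shares exonic bases with Bckdhb. Its locus spans 199096 bases, the longest among the members.

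E2 and E3 complete the complex. Dbt (ENSMUSG00000000340.10, chr3:116513070-116549981, plus strand), for the E2 core that passes the acyl group to coenzyme A, was at 593, 514 and 486 in sham mice and 556, 518 and 575 after ON-CR. The ON-CR values all lay within the sham range. The log2 fold change was 0.05 (standard error 0.13), the only positive one among the members, and it was -0.01 without sham mouse 3. Dld (ENSMUSG00000020664.10, chr12:31331277-31351453, minus strand), for an E3 that the pyruvate and 2-oxoglutarate dehydrogenases and the glycine cleavage system also use, was at 1444, 1297 and 1243 in sham mice and 1182, 1247 and 1203 after ON-CR. Only ON-CR mouse 5 reached the lowest sham value. The log2 fold change was -0.13 (standard error 0.11).

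Bckdk (ENSMUSG00000030802.14, chr7:127904082-127910221, plus strand), for the kinase that phosphorylates and inactivates E1 alpha, was at 1946, 1697 and 1519 in sham mice and 1545, 1245 and 1653 after ON-CR. The groups overlap, with only ON-CR mouse 5 under all sham mice. The log2 fold change was -0.22 (standard error 0.14).

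Ratios within a library do not depend on its scaling factor, so the subunits were also set against Bckdha in each mouse. Bckdhb was at 44.7, 50.9 and 47.3% of the Bckdha value in sham mice and at 22.8, 10.5 and 7.62% after ON-CR, a difference of -1.96 in the log2 ratio. The sham mice lay close together and every ON-CR mouse was below them. Dbt was at 45.9, 43.8 and 55.3% of Bckdha in sham mice and 61.3, 52.8 and 65.3% after ON-CR, a difference of 0.31 in the log2 ratio, with overlap. Set against Dbt instead, the log2 ratio of Bckdhb averaged -0.01 in sham mice and -2.29 after ON-CR. Leaving out each mouse in turn gave a difference in the log2 ratio of Bckdhb to Bckdha from -2.41 to -1.62.

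**Figure D2:**
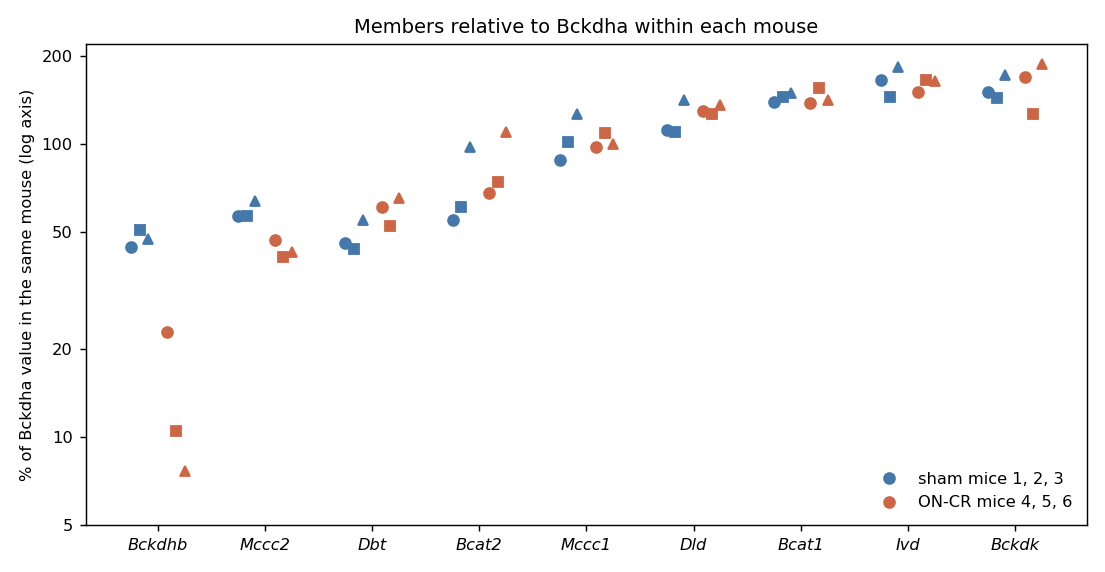
Value of each member as a percent of the Bckdha value in the same mouse, for sham and ON-CR mice; each point is 1 mouse. Bckdhb runs from 44.7 to 50.9% in sham mice and from 7.62 to 22.8% after ON-CR, whereas Dbt does not fall below 43.8% in any mouse.

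The next enzymes act on leucine carbon alone. Ivd (ENSMUSG00000027332.11, chr2:118861954-118882909, plus strand), for isovaleryl-CoA dehydrogenase, was at 2148, 1705 and 1618 in sham mice and 1372, 1631 and 1455 after ON-CR. ON-CR mouse 5 lay just over sham mouse 3, so the groups overlap. The log2 fold change was -0.29 (standard error 0.14). Mccc1 (ENSMUSG00000027709.9, chr3:35959312-36000678, minus strand), for the biotin-carrying alpha chain of methylcrotonyl-CoA carboxylase, was at 1147, 1196 and 1112 in sham mice and 888, 1075 and 883 after ON-CR. The groups did not overlap, by a narrow gap between ON-CR mouse 5 and sham mouse 3. Its log2 fold change was -0.29 (standard error 0.12).

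Mccc2 (ENSMUSG00000021646.9, chr13:99948530-100015639, minus strand), for the beta chain of the same carboxylase, was at 736, 668 and 562 in sham mice and 427, 406 and 377 after ON-CR. The ON-CR mice were close to one another and all under the sham range. Means were 655 ± 88.1 and 403 ± 25.0 (SD, n = 3 each), or 61.5% of the sham level and a log2 fold change of -0.69 (standard error 0.14). Relative to Bckdha, Mccc2 was at 57.0, 56.8 and 64.0% in sham mice and 47.0, 41.3 and 42.8% after ON-CR, a difference of -0.44 in the log2 ratio. In both member enzymes with an alpha and a beta chain, the E1 of the dehydrogenase and the carboxylase, the beta chain gene had the lower fold change. This was not general among the companion genes described below. Pdhb (-0.16) was above Pdha1 (-0.28) and Pccb (-0.15) above Pcca (-0.32), whereas Hadhb (-0.25) was below Hadha (-0.12).

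Sham mouse 3 had the lowest sham value for 9 of the 10 members, and also the lowest summed oligodendrocyte markers among sham mice and the only high respiratory epithelium markers among them. The part of these signals in the values of the members was not tested. Without sham mouse 3 the log2 fold change of Bckdhb was -2.37.

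Because oligodendrocyte markers were lower after ON-CR, each member was also expressed per 1000000 of their sum in the same mouse, a measure chosen after the values were seen. Bckdhb was then at 313, 360 and 321 in sham mice and 277, 163 and 101 after ON-CR. ON-CR mouse 4 came near the lowest sham mouse on this measure, and the mean difference was -0.996 on the log2 scale, against -2.21 before. Mccc2 was at 398, 402 and 434 in sham mice and 570, 643 and 567 after ON-CR, so that its direction turned to 0.53. The other 8 members were all higher per oligodendrocyte marker after ON-CR, by 0.93 to 1.27 on the log2 scale. Dividing by the same sum in each mouse moves every member by nearly the same amount. The 8 directions therefore follow from the lower marker sum and are not separate results about these members. Per 1000000 of the summed astrocyte markers, the differences were -2.44 for Bckdhb, -0.92 for Mccc2 and -0.51 to -0.17 for the other 8.

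These sums were dominated by single genes. Mbp, for myelin basic protein, gave 55.2 to 70.1% of the oligodendrocyte sum and had the lowest fold change of the 10 markers (-1.42 on the log2 scale), and Gfap gave 43.1 to 62.7% of the astrocyte sum and had the highest (0.64). Without Mbp, the differences were -1.32 for Bckdhb, 0.20 for Mccc2 and 0.61 to 0.95 for the other 8 members. With each oligodendrocyte marker weighted alike on the log2 scale, they were -1.39, 0.13 and 0.54 to 0.88. The fold changes of 3 of the 10 oligodendrocyte markers (Cldn11, Aspa and Opalin) were closer to 0 than that of Mccc2, so the direction for Mccc2 depends on the markers it is set against. Without Gfap, the astrocyte markers summed to 130800 to 159400 in sham mice and 120700 to 136400 after ON-CR, and the differences were -0.48 for Mccc2 and -0.07 to 0.27 for the other 8, with Bckdhb again the lowest. With each astrocyte marker weighted alike they were -2.14 for Bckdhb, -0.62 for Mccc2 and -0.21 to 0.13 for the other 8. Bckdhb was lower after ON-CR under each of these 6 denominators. Each denominator moves all members nearly alike and keeps their order, so these are not 6 separate results. Which cells of the nerve held these transcripts was not tested.

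Levels between genes were compared per kilobase of exon. In sham mice Bckdha was highest at 587 ± 113 per kilobase and Bckdk next at 466 ± 58.1, ranges that overlap. Bckdhb held place 5 at 294 ± 55.7 in sham mice, and its range overlapped that of the next gene in the order, Mccc2, at 234 ± 31.4. After ON-CR it held place 10, the lowest, at 69.7 ± 40.4 (SD, n = 3 each). Mccc1 closed the sham order at 105 ± 3.81. The places depend on which length is used. Per kilobase of coding sequence Bckdhb was at place 8 in sham mice and again at place 10 after ON-CR, and 9 of the 10 sham places differed from those per kilobase of exon.

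Some members share exonic bases with a gene on the other strand, and no source used here says that the counting used strand. B3gnt8 shares 1171 of the 1899 exonic bases of Bckdha and was at 86.7 to 118 over the 6 mice, below every Bckdha value. Mccc1os shares 198 bases with Mccc1 and was at 80.2 to 121. The antisense genes beside Bcat1 and Bcat2 had values of at most 7.32 and 29.4.

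The profile of Bckdhb over the 6 mice was compared with that of 14435 other genes with a mean value of at least 50, by the root mean square difference of log2(value + 1) after taking off each gene's mean. The nearest were Rbfa, for a mitochondrial ribosome assembly factor (0.182), Rarres1 (0.195), Znhit2 (0.345), Mri1, for an enzyme of methionine salvage (0.356), and Asb2, for a ubiquitin ligase subunit (0.372). Rbfa was at 286, 286 and 248 in sham mice and 130, 69.3 and 40.5 after ON-CR. Rarres1 was at 201, 248 and 222 in sham mice and 78.8, 41.9 and 30.1 after ON-CR. Both followed the order of Bckdhb among ON-CR mice, highest in mouse 4 and lowest in mouse 6. They were picked for nearness of profile over these same mice, so a shared order follows from the choice. The nearest member was Mccc2 at place 466 (0.870), and Bckdha came at place 2778 (1.08).

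**Figure D3:**
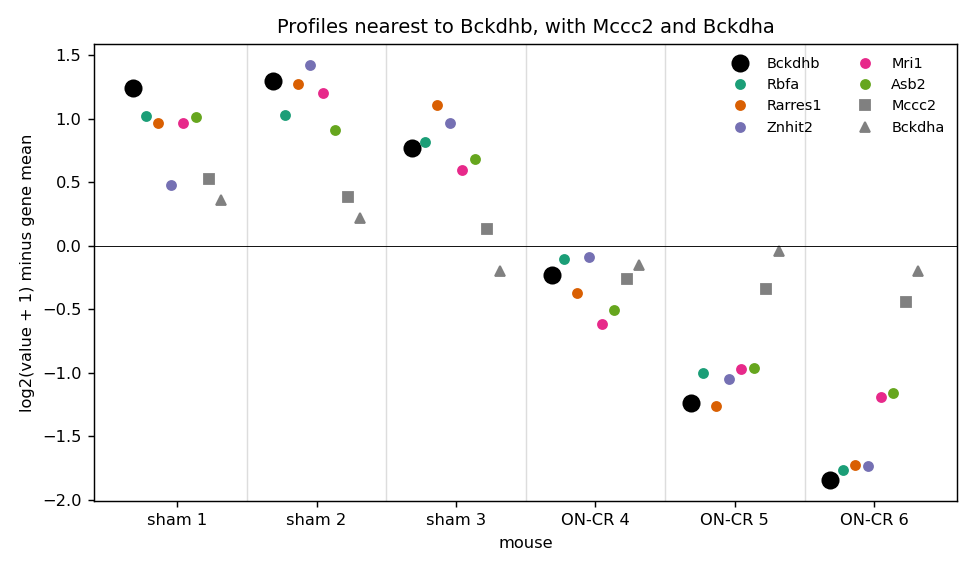
Log2(value + 1) of each gene after taking off its mean over the 6 mice (y axis), by mouse (x axis), for Bckdhb, the 5 genes nearest to it, Mccc2 and Bckdha; each point is 1 gene in 1 mouse. Like Bckdhb, each of the 5 nearest genes has its highest ON-CR value in mouse 4 and its lowest in mouse 6. These 5 were picked by this profile. Mccc2 and Bckdha lie above Bckdhb and the 5 nearest genes in ON-CR mice 5 and 6.

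Genes of the same and neighbouring pathways were taken from 10 lists made by function, 76 genes in all. The lists were chosen with earlier results of these data known, so their counts and p-values are descriptive. Of these, 3 fell at an adjusted p at or under 0.05 by limma and 0 rose, where 1.13% and 0.971% of all genes did. At an unadjusted p under 0.05, 26 were lower and 6 higher, where 12.9% and 9.08% of the 14436 genes with a mean value of at least 50 were. A lower fold change was seen in 58 of 76, with a median of -0.23, where 51.9% of those 14436 genes had one, and in 50 of 76, with a median of -0.10, when only the library total set the scale.

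Auh, for the hydratase that takes up the product of methylcrotonyl-CoA carboxylase, was at 432, 543 and 409 in sham mice and 266, 269 and 197 after ON-CR. It fell from 461 ± 71.7 to 244 ± 40.8 (SD, n = 3 each), which is -0.92 on the log2 scale (standard error 0.18) with an adjusted p of 0.0303 by limma. Klf15, for a transcription factor known to control branched-chain amino acid breakdown in muscle and liver, was at 458, 664 and 580 in sham mice and 302, 374 and 314 after ON-CR. It fell by 0.77 on the log2 scale (standard error 0.17, adjusted p = 0.0485 by limma). Pdk1, for a kinase of the pyruvate dehydrogenase, was at 415, 509 and 396 in sham mice and 278, 254 and 262 after ON-CR. It fell by 0.72 on the log2 scale (standard error 0.15, adjusted p = 0.0395 by limma). The groups did not overlap for any of the 3 genes. Each call was lost without sham mouse 1, 2 or 3 or ON-CR mouse 6 and under library-total scaling. Adjusted p ranged from 0.0163 to 0.18 for Auh, 0.0228 to 0.237 for Klf15 and 0.0266 to 0.209 for Pdk1 over the alternatives.

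By list, the 5 genes of the later leucine steps had a median log2 fold change of -0.25, with only Auh called. With the deposited scaling, all 17 genes of the later isoleucine and valine steps, which lead to propionyl-CoA and succinyl-CoA, had lower fold changes. These lay between -0.56 and -0.12 with a median of -0.31, but 0 were called by limma and 8 were lower at an unadjusted p under 0.05. The number that stay lower under library-total scaling was not counted for this list. The 4 genes that control the dehydrogenase had a median of -0.29, with only Klf15 called. The 8 genes of the sister dehydrogenases, for pyruvate, 2-oxoglutarate and 2-oxoadipate, had a median of -0.22 with 0 called and 3 lower at an unadjusted p under 0.05.

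The kinases and phosphatases of pyruvate dehydrogenase had a median of -0.25 over 7 genes, with only Pdk1 called. Genes for lipoate and biotin attachment, 5 in all, had a median of -0.07, with 0 called and 0 at an unadjusted p under 0.05. The other biotin-dependent carboxylases, 2 genes, had a median of -0.26, with 0 called and 1 lower at an unadjusted p under 0.05. The 10 genes of glutamate and glutamine handling had a median of -0.07, with 0 called, 2 lower and 1 higher at an unadjusted p under 0.05. A set of 10 genes for mitochondrial mass had a median of -0.20, with 0 called, 3 lower and 1 higher at an unadjusted p under 0.05. The median of amino acid and ketoacid transport was 0.21, with 6 of 8 genes higher, 0 called, 1 lower and 3 higher at an unadjusted p under 0.05. Slc7a5, for the light chain of the large neutral amino acid transporter and singled out after its value was seen, stood at 0.65 on the log2 scale (standard error 0.17) with an adjusted p of 0.0830 by limma, and was called higher under library-total scaling alone.

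**Figure D4:**
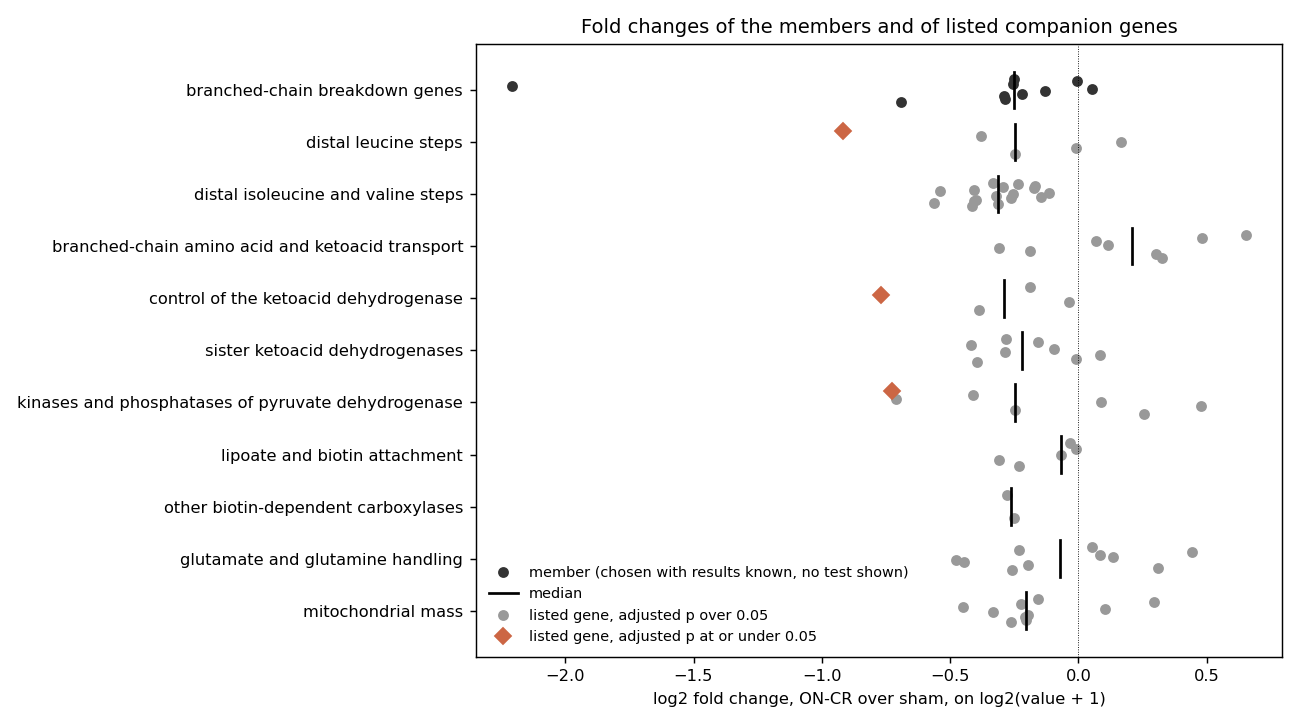
Log2 fold change of ON-CR over sham (x axis) for the members and for the genes of 10 neighbouring lists (rows); each point is 1 gene, diamonds mark listed genes called by limma, and vertical strokes are list medians. Bckdhb at -2.21 lies far to the left of all 76 listed genes, the lowest of which is Auh at -0.92.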

How the data were processed

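Bulk RNA of optic nerves from 3 sham and 3 ON-CR mice was grouped by the sample labels. The authors aligned and quantified reads with DRAGEN 3.9.3-8 against the primary assembly of an earlier Ensembl release. The mm10 gene models of Ensembl 102 and median normalization were applied in Partek Flow 10.0. The authors deposited a normalized signal, in which each estimated count has been scaled by the factor of its library. The study tested counts with DESeq2, which was not run here because these values are not raw counts. Dividing by the value of 1 read gave 69.3 to 71.2% whole reads (within 0.02), used for depth only.

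In R 4.3.3, limma 3.58.1 was fitted to log2(value + 1) with a trend of the variance on the mean, after a check on simulated data. P-values were adjusted by Benjamini-Hochberg over 25755 genes. Replicates carry no stated relation, so each library was treated as independent. P-values set the group difference against the spread between libraries, which limma moderates across genes.

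The members and all gene lists were chosen with earlier results of these data known. Named genes were all members, every listed companion with an adjusted p at or under 0.05 and the 3 with the largest fold change, the 5 profiles nearest to Bckdhb, Xist and Ddx3y. Other named genes were chosen after their values were seen. Positions are from GENCODE gene models of GRCm38, found for 97.3% of genes, and upstream sequences from RefSeq. Alternatives were other pseudocounts, scalings, a mean value of at least 10, sample quality weights, a robust fit, coding length, and leaving out each mouse. Of 78 listed companion symbols, Pc was not in the table and Mut is an older symbol of Mmut, which was.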

Additional observations from a re-analysis of the deposited data

How the results depend on the processing

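With only the library total as scale, 1 member was called lower (Bckdhb), and of the companion genes 0 were called lower and 1 higher. Leaving out each mouse in turn gave 0 to 2 members and 0 to 3 companion genes called lower, with 0 called higher. Over the other settings, 2 members and 2 or 3 companion genes were lower. The median of the members ranged from -0.34 to -0.12. Of 140 member fold changes under settings other than marker sums, 133 kept their sign and 137 moved by less than the spread between replicates. These counts include the robust fit and the filter at a mean value of at least 10, which cannot change a member's fold change. The other pseudocounts changed them little, so the counts are not a measure of stability. Against oligodendrocyte markers, measures added after the data were seen, Mccc2 reversed to 0.53 (sum), 0.20 (sum without Mbp) and 0.13 (each marker weighted alike), and the cause was not tested. Klf15 was also lost at pseudocount 0.5 (adjusted p = 0.0509), under upper-quartile scaling (0.0575) and without ON-CR mouse 4 (0.115), and Pdk1 without ON-CR mouse 4 (0.0693) or 5 (0.0516), all by limma. The number of genes called over the whole table was 540, and 67 to 854 when 1 mouse was left out, 616 under library-total scaling and 791 and 710 with sample quality weights and the robust fit. Depth did not limit the members, with at least 65 reads in every library. No paired analysis was possible because mice carry different numbers in the groups.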

Other observations

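The genes in the table with the 5 nearest starts on each side of the Bckdhb start on chromosome 9 were examined. Among them, Gm29164 lies within the span of Bckdhb on the other strand. By limma 0 of these 10 were called (1 at an unadjusted p under 0.05), with 5 lower. Over all genes 1.13% were called lower and 0.971% higher. Some of the 10 had low values, with sham and ON-CR means of 2.27 and 4.48 for Gm36278 and 5.00 and 3.75 for Gm29164. Such values leave little room for a call, so an unchanged region is not shown. Tent5a, for a poly(A) polymerase, was at 474, 582 and 754 in sham mice and at 896, 895 and 1029 after ON-CR, with no overlap, or 0.66 on the log2 scale (standard error 0.17) with an adjusted p of 0.0827 by limma.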
